A study of Mus musculus with 12 samples.

Results

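The 6 genes followed here encode subunits of the 7SK small nuclear ribonucleoprotein (7SK RNP) and of the kinase it holds, P-TEFb. Larp7, a further subunit, is the gene deleted in the mutant cells of the mouse dentate gyrus. The 6 genes are Hexim1, Hexim2, Mepce, Cdk9, Ccnt1 and Ccnt2. They were taken by symbol from the 27998 genes of each single-cell library and by Entrez identifier from the 40814 genes of the neurosphere table, and all 6 were found in both. The single-cell libraries, 1 per genotype, held dentate gyri at postnatal day 7 (P7) from wild-type animals and from 2 conditional knockouts, Larp7 f/f;nestin-Cre (called nestin-Cre here) and, with the other driver, Larp7 f/f;Emx1-Cre (Emx1-Cre), and each held 3 to 4 gyri of littermates, pooled. The neurosphere libraries held bulk RNA of cells grown from P1 dentate gyrus and then plated as single cells and kept for 2 days with bFGF at 20 ng/ml, the start of differentiation by the labels (elsewhere the study names serum in place of growth factors for this step), 2 from wild-type and 3 from Larp7 knockout cultures (Larp7 f/f;Emx1-Cre). The wild-type animals carried the floxed Larp7 alleles without Cre, so the floxed alleles, with exon 9 between the loxP sites, were common to every group. nestin-Cre is a transgene active in neural progenitors of the developing nervous system, whereas Emx1-Cre is a knock-in active in the dorsal forebrain. The title and the genotype entry of the nestin-Cre and Emx1-Cre libraries contradict each other, each naming the other's driver, and the titles were followed. The number of cells that the study kept from the nestin-Cre library exceeds the 6821 barcodes of the library titled Emx1-Cre, so the cell numbers go with the titles.

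The 7SK RNP keeps part of the cell's P-TEFb inactive. Mepce caps the 5′ end of the 7SK RNA, Larp7 holds its 3′ end, and a dimer of Hexim1 or Hexim2 on the RNA binds and inhibits P-TEFb, which is the kinase Cdk9 with cyclin T1 (Ccnt1) or cyclin T2 (Ccnt2). Once released, P-TEFb phosphorylates the pausing factors and the tail of RNA polymerase II, which lets a paused polymerase elongate.

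The 7SK RNA is the scaffold on which these proteins meet, and both of its ends are shown because Hexim proteins bind near the first and Larp7 at the last. The gene is Rn7sk (332 bases, GRCm38.p6, minus strand, RefSeq annotation). In its first bases (chr9:78175526-78175633) the letters GATC, which Hexim proteins recognise as GAUC in the RNA, occur 3 times, starting at bases 13, 42 and 64 from the 5′ end, and are in capitals. In its last 60 bases (chr9:78175302-78175361) the closing run of 4 T, the U tail that the La module of Larp7 holds, is in capitals.
Rn7sk first bases: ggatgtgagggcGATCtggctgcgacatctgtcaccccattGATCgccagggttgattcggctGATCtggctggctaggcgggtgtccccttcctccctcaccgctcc
Rn7sk last bases: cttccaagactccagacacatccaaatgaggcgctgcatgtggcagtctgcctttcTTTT

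Promoters were at hand in RefSeq for Hexim1, Cdk9, Ccnt1 and Ccnt2 (GRCm38.p6, 250 bases before to 50 after the start of the gene). Those of Hexim1 (chr11:103116075-103116374, plus strand) and Cdk9 (chr2:32712735-32713034, minus strand) are shown because Hexim1 was higher and Cdk9 lower in the mutant progenitors and neuroblasts described later. Capitals mark matches, on either strand, to a GC box (GGGCGG or its complement CCGCCC) and a CCAAT box (CCAAT or ATTGG). Each of these promoters held 1 GC box and 1 CCAAT box, while Ccnt2 held 3 of each, of which a GC box and an ATTGG overlap, and Ccnt1 held 2 GC boxes and no CCAAT box. No TATAAA was found in these 4 windows on either strand. Only this exact string was sought, and the Hexim1 window holds the near form tatataag. Of all 32851 RefSeq promoters of this length, 35.7% held a GC box, 37.4% a CCAAT box and 13.6% a TATAAA, so these matches are common. The promoter of Cdk9 was 78.3% G and C and that of Hexim1 61.0%.
Hexim1: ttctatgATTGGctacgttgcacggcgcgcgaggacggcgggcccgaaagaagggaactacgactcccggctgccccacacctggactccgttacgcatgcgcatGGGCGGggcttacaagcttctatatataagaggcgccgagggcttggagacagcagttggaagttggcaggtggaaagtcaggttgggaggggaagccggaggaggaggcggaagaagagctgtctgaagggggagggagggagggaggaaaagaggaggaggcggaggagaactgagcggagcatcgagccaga
Cdk9: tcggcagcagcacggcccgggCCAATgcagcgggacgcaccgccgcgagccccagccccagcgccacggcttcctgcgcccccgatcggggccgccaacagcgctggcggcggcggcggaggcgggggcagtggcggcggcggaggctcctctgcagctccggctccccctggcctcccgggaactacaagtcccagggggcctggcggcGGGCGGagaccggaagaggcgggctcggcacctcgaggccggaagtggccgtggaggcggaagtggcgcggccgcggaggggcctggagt

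Hexim1 lies on chromosome 11 (103116325 to 103119725), and Hexim2 (103123260 to 103139908) follows it on the same strand after a gap of 3534 bases. Mepce is on chromosome 5 (137781906 to 137786701), Cdk9 on chromosome 2 (32705782 to 32712784), Ccnt1 on chromosome 15 (98538690 to 98567736) and Ccnt2 on chromosome 1 (127774164 to 127804837). Ccnt1 overlaps the annotated gene 9330020H09Rik, and since the counting is not stated to use strand, reads of the pair cannot be told apart. No other gene overlaps the remaining 5.

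In neurospheres the libraries held 59821311 to 62474602 counted reads each. The deletion was checked first on Larp7 itself. Larp7 stood at 42.8 and 34.98 CPM (reads of the gene relative to all reads counted in the library, scaled by TMM) in the wild-type libraries and at 4.17, 6.35 and 4.39 CPM in the knockout libraries. The groups were far apart, with a log2 fold change of -2.97 ± 0.21 (SE) and an adjusted p of 0.020 in edgeR's quasi-likelihood test. Without knockout replicate 1 or 3 that p was 0.15 and 0.19 (edgeR, 0.0036 to 0.19 over the 5 libraries left out in turn). Reads outside exon 9 remain countable in a knockout. The 7SK RNA was hardly counted in these libraries, with 18 and 8 reads in wild-type and 0, 4 and 0 reads in knockout neurospheres, and its near-identical copies elsewhere in the genome make even these uncertain.

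The cell types of the neurospheres were checked on marker genes. Of 12 markers of radial glia-like cells, 10 passed the filter on low counts, led by Fabp7, as did all 8 of oligodendrocyte precursors and all 10 of astrocytes. All 6 markers of glial progenitors passed too, led by Olig1, and 8 of 11 of granule neurons. The glial progenitor markers had the highest sum of the lists, at 5682 to 6376 CPM in wild-type and 5711 to 6025 CPM in knockout libraries. Only 4 of 10 neuroblast markers and 3 of 10 microglia markers passed. The summed level of the astrocyte markers was 3091 to 3948 CPM in wild-type and 1879 to 2620 CPM in knockout libraries, and that of the markers of neuronal intermediate progenitors, which include proliferation genes, was 674 to 1140 CPM and 1363 to 1459 CPM. Oligodendrocyte precursor markers summed to 1937 to 2307 CPM in wild-type and 2505 to 3274 CPM in knockout libraries. These shifts separate the same libraries as the genes below, and their part in the results was not tested. In bulk RNA, fewer cells of a type and less RNA per cell cannot be told apart.

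Among the inhibitors, Hexim1 was higher in every knockout library. Its level was 69.9 and 85.2 CPM in wild-type and 135.5, 130.1 and 122.5 CPM in knockout neurospheres, means of 77.5 ± 10.9 (SD, n = 2) and 129.4 ± 6.53 (SD, n = 3). The lowest knockout library was well above the highest wild-type library. The difference was 1.67-fold (log2 0.74 ± 0.10 SE), with an unadjusted p of 1.9e-04 and an adjusted p of 0.086 in edgeR's quasi-likelihood test, so it did not pass the threshold of 0.05 over all genes. Hexim2, the second and less abundant inhibitor, stood at 5.83 and 7.38 CPM in wild-type and 7.24, 7.00 and 7.81 CPM in knockout neurospheres. These groups overlapped, and the log2 difference of 0.15 ± 0.16 was within its error (adjusted p = 0.61, edgeR).

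Mepce, the capping enzyme, measured 49.6 and 47.7 CPM in wild-type against 66.4, 64.3 and 57.6 CPM in knockout neurospheres. All 3 knockout libraries were above both wild-type libraries, by 1.29-fold on average (log2 0.37 ± 0.09 SE, adjusted p = 0.12, edgeR).

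RNA of the kinase and its cyclins had lower or nearly equal values in knockout neurospheres. Protein was not measured here. By the study's blots Cdk9 and Hexim1 were unaltered in cultured Larp7 knockout progenitor cells, which are not said to have been differentiated. For Hexim1 mRNA the study reports a moderate rise with Larp7 knockout, by RNA sequencing of hippocampus and of neurospheres. Cdk9 measured 60.2 and 68.2 CPM in wild-type against 57.6, 49.5 and 53.3 CPM in knockout neurospheres, a log2 difference of -0.26 ± 0.10 (adjusted p = 0.20, edgeR). Ccnt2 measured 71.2 and 78.3 CPM in wild-type against 49.6, 58.3 and 49.9 CPM in knockout neurospheres. Here the gap between the groups was wide, with a log2 difference of -0.51 ± 0.10 and an adjusted p of 0.095 (edgeR). Ccnt1, the other cyclin, measured 57.5 and 58.4 CPM against 57.0, 56.2 and 52.6 CPM, and its log2 difference of -0.07 ± 0.08 was within its error (adjusted p = 0.64, edgeR).

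**Figure D1:**
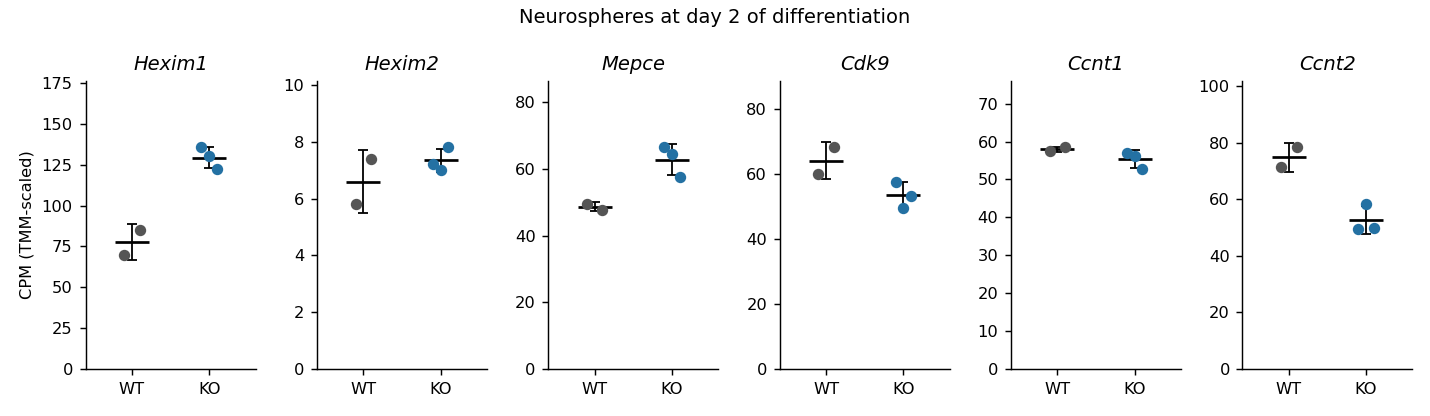
Level of the 6 genes (CPM, linear axis from 0) in each neurosphere library, with the mean (line) and SD (bar) of 2 wild-type (WT) and 3 knockout (KO) libraries. Hexim1 and Mepce are higher and Ccnt2 is lower in all 3 knockout libraries, while Hexim2 overlaps.

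None of the 6 genes therefore passed the edgeR test, which called 6 of 17753 genes (0.0338%). At an unadjusted p under 0.05, 4 of the 6 (Hexim1, Mepce, Cdk9 and Ccnt2) passed, beside 21.7% of all genes. DESeq2, run as the alternative, called 1785 genes (10.1%) and among them Hexim1 (adjusted p = 2.3e-07), Mepce (0.0082) and Ccnt2 (0.0010), while Cdk9 (0.12), Hexim2 and Ccnt1 missed. Wild-type and knockout libraries did not overlap for 5 of the 6 genes, Hexim2 being the exception, but this held for 42.6% of all genes tested. Over the 10 alternatives run, the adjusted p ran from 2.3e-07 to 0.34 for Hexim1, from 0.0082 to 0.34 for Mepce and from 0.0010 to 0.34 for Ccnt2. Leaving out wild-type replicate 1 leaves 1 wild-type library, which is then assumed to vary like the knockout libraries. In that edgeR fit Hexim1 had a log2 difference of 0.60 with an adjusted p of 0.013, and Ccnt2 one of -0.57 with an adjusted p of 0.038.

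Put on a scale that allows genes to be compared (CPM per kilobase of RefSeq exons), wild-type neurospheres held most Hexim1 (22.8 ± 3.19 SD), Ccnt2 (21.3 ± 1.42) and Cdk9 (18.9 ± 1.68), whose ranges of mean ± SD ran into each other in this order. Mepce (15.4 ± 0.42), Ccnt1 (8.19 ± 0.09) and Hexim2 (3.39 ± 0.56) followed. In knockout neurospheres the level per kilobase of Hexim1 (38.0 ± 1.92) stood clear of all others, Mepce (19.8 ± 1.45) came second, and Cdk9 (15.8 ± 1.20) and Ccnt2 (14.98 ± 1.41) did not differ beyond their SD.

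Of the surrounding elongation genes, only Larp7, which is the deleted gene, passed the edgeR test in neurospheres. A list of 41 such genes was read from the same fit, of which 40 passed the filter on low counts and 1 was called. Their median log2 difference was 0.06, beside 0.01 over all genes tested. By group, the median was 0.10 for the 9 genes known to exchange with 7SK or release P-TEFb (such as Hnrnpa1), 0.07 for the 9 genes of the super elongation complex, -0.05 for the 6 pausing factors, 0.01 for the 6 genes of other kinases of the polymerase tail and 0.09 for the 9 genes of the elongation machinery. The widest difference after Larp7 was that of Polr2a, which encodes the largest subunit of RNA polymerase II and is singled out here after its value was seen (log2 0.55 ± 0.06 SE, adjusted p = 0.066 in edgeR and 9.5e-13 in DESeq2). DESeq2 called 3 of the list, namely Larp7, Polr2a and Hnrnpa1.

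**Figure D2:**
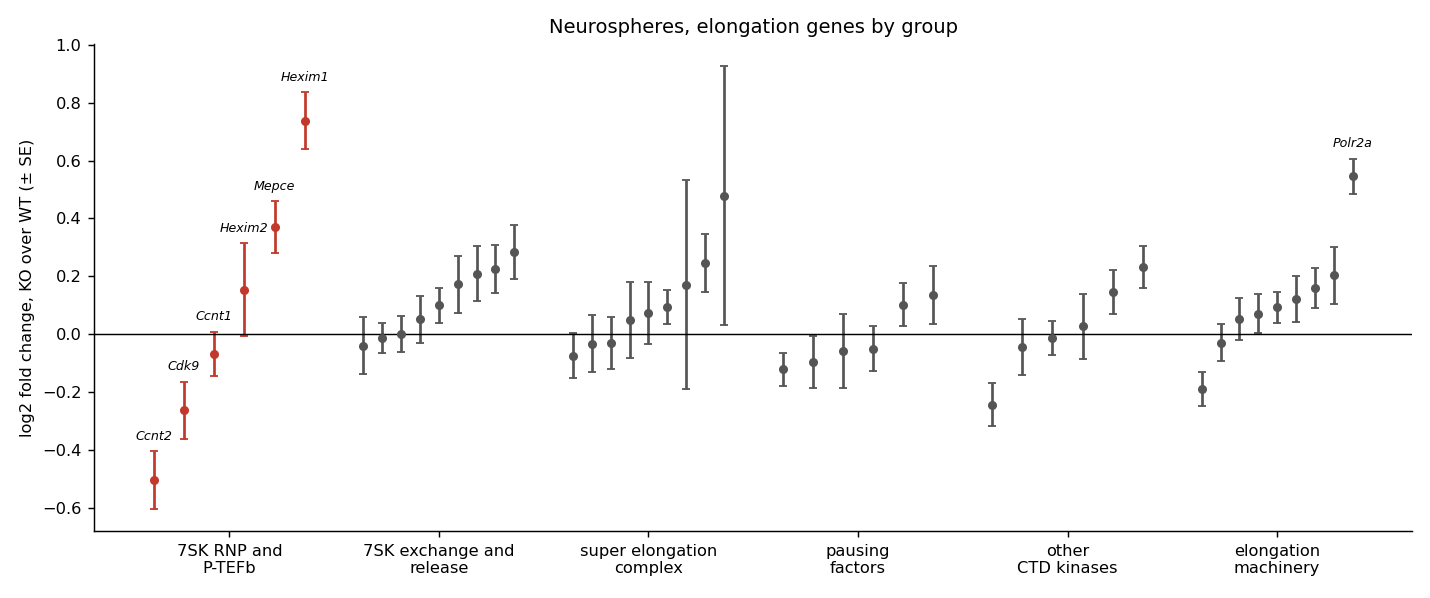
Log2 fold change of knockout over wild-type neurospheres (points, with SE as bars) for the 6 genes and for 39 list genes in 5 groups. Hexim1 at 0.74 lies above, and Ccnt2 at -0.51 below, the point of every grouped gene, and Larp7 at -2.97 is left out of the plot.

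The P7 libraries gave each gene a level in named cell types. After filtering, 10997 wild-type, 6685 nestin-Cre and 6531 Emx1-Cre cells remained, with median depths of 1782, 3644 and 3873 UMIs (counted RNA molecules), so the wild-type library was the shallowest, and the pairs of libraries shared 11 to 23 cell barcodes. Cells were clustered without the 6 genes and named after markers, and 7 classes had at least 50 cells in each library: radial glia-like stem cells (RGL-like), neuronal intermediate progenitors (nIPC-like), neuroblast-like, astrocyte-like, glial progenitor-like, oligodendrocyte precursor (OPC-like) and microglia-like cells. A further cluster of 2788 cells, 2679 of them wild-type, stayed unnamed and entered no comparison between classes. With 1 library per genotype no test was possible. Levels are CPM of a class's UMIs with exact 95% Poisson intervals, and ratios to the wild-type library carry exact 95% intervals, both covering counting error only and not differences between animals. Both mutant libraries were set against the same wild-type library, which was also the shallower. Larp7 was lower in the mutant libraries in all 7 classes, from 96.5 CPM to 11.3 (nestin-Cre) and 14.8 (Emx1-Cre) in nIPC-like cells.

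Hexim1 was higher in both mutant libraries in each of the 7 classes. In nIPC-like cells it stood at 19.6 CPM (15.3 to 24.8) in the wild-type library, 47.8 CPM (41.3 to 55.0) in the nestin-Cre library and 46.7 CPM (40.8 to 53.3) in the Emx1-Cre library. The intervals of both mutant libraries lay well above that of the wild-type library, at 2.43-fold (log2 1.28, interval 0.88 to 1.70) and 2.38-fold (log2 1.25, 0.86 to 1.66). In neuroblast-like cells Hexim1 stood at 17.5, 49.7 and 48.0 CPM, ratios of 2.84-fold (2.29 to 3.54) and 2.74-fold (2.21 to 3.42). Several clusters made up the neuroblast-like cells, of which number 3 was the largest in the wild-type and number 14 in the mutant libraries. Within cluster 14 alone the log2 ratios of Hexim1 were 1.45 and 1.44, inside their intervals. Of the 12 ratios read in cluster 14 alone, 3 moved past their interval, and those that moved belonged to genes other than Hexim1. Among ratios past 1.5-fold, 0 reversed. The neuroblast-like ratios of the other genes below are given over all clusters only, and the 3 that moved are among them. Cluster 14 held 544 of 1904 wild-type, 1216 of 2757 nestin-Cre and 968 of 2370 Emx1-Cre neuroblast-like cells. Those ratios therefore mix clusters in shares that differ between libraries.

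RGL-like cells, the stem cells at the top of the lineage, held more Hexim1 in every library than the other classes, at 54.3, 102.1 and 90.3 CPM, and log2 ratios of 0.91 (0.64 to 1.19) and 0.73 (0.46 to 1.01). In glial progenitor-like cells Hexim1 rested on 34 to 72 UMIs a library and its log2 ratios were 1.33 (0.73 to 1.97) and 1.17 (0.56 to 1.81). In astrocyte-like cells Hexim1 was 0.68 (0.38 to 0.97) and 0.51 (0.23 to 0.79) higher on the log2 scale, and in cluster 7 alone it was 0.60 and 0.37 higher. Cluster 7 held most mutant astrocyte-like cells (447 of 700 and 589 of 822), whereas 1114 of 1826 wild-type ones were in the shallow cluster 12. In OPC-like cells the interval of Hexim1 lay above 0 for nestin-Cre (1.71-fold, 1.07 to 2.83, on a log2 scale 0.78) and not for Emx1-Cre (0.51, -0.19 to 1.25). RGL-like cells came first in each library, with a ratio to the next class whose interval lay above 1, and none of the other 5 pairs of neighbouring classes differed beyond counting error. The lowest class was neuroblast-like in the wild-type, nIPC-like in the nestin-Cre and microglia-like in the Emx1-Cre library, and the highest over the lowest came to 3.10-fold, 2.14-fold and 1.98-fold.

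**Figure D3:**
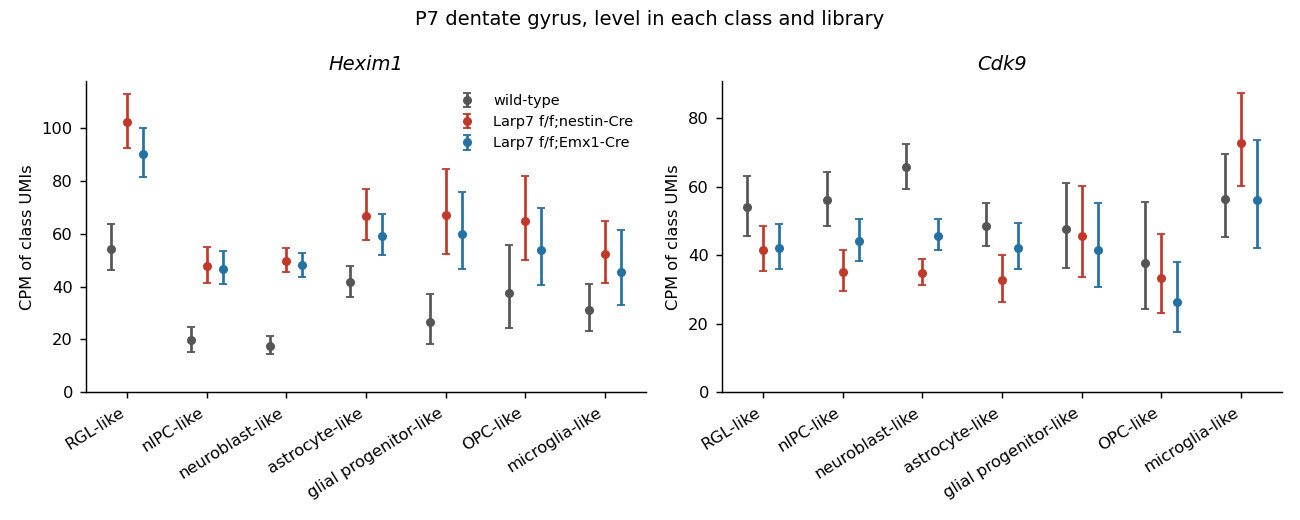
Level of Hexim1 (left) and Cdk9 (right) in 7 classes of P7 cells, as CPM of the UMIs of the class (linear axis from 0), with exact 95% Poisson intervals, in the wild-type (grey), nestin-Cre (red) and Emx1-Cre (blue) library. Hexim1 lies higher in both mutant libraries in every class, whereas Cdk9 lies lower in nIPC-like and neuroblast-like cells and not in microglia-like cells.

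Depth was also set equal. With every nIPC-like cell thinned to 1500 UMIs, and 100, 22 and 20 shallower cells left out, a Hexim1 UMI was found in 2.78% of wild-type cells (exact 95% interval 1.73 to 4.22), 7.75% of nestin-Cre cells (6.01 to 9.81) and 7.07% of Emx1-Cre cells (5.52 to 8.89). Unthinned, at median depths of 4078, 4391 and 4402 UMIs, the shares of cells with a Hexim1 UMI were 7.60%, 20.2% and 19.3%. No class is known to lack Hexim1, so the share that free RNA gives was not measured. Thinned cells gave log2 ratios of Hexim1 in nIPC-like cells of 1.43 and 1.38. When cells were instead assigned to nIPC-like one by one, by a gate on the same markers, fewer cells remained (408, 215 and 331) and the log2 ratios of Hexim1 were lower, at 0.74 (0.14 to 1.34) and 0.79 (0.26 to 1.34).

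Hexim2 was sparse. It gave 11 UMIs in wild-type, 30 in nestin-Cre and 41 in Emx1-Cre nIPC-like cells, or 3.04, 7.39 and 8.67 CPM, and log2 ratios of 1.28 (0.24 to 2.42) and 1.51 (0.53 to 2.62). In neuroblast-like cells Hexim2 stood at 7.35, 9.28 and 12.1 CPM, and the interval lay above 0 for the Emx1-Cre library (log2 0.72, 0.20 to 1.26) but not for the nestin-Cre library (0.34, -0.20 to 0.89). In the other 5 classes all intervals of the Hexim2 ratio held 0. In RGL-like cells, where Hexim1 was most abundant, the log2 ratios of Hexim2 were 0.07 (-0.73 to 0.89) and -0.15 (-0.96 to 0.69).

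Mepce was modestly higher. In nIPC-like cells it stood at 30.4 CPM in the wild-type, 46.8 in the nestin-Cre and 38.7 in the Emx1-Cre library, log2 ratios of 0.62 (0.27 to 0.97) and 0.35 (-0.0013 to 0.70). All 7 classes had a ratio of Mepce above 1 in both mutant libraries, but the interval lay above it in 4 classes for nestin-Cre and in 0 for Emx1-Cre. Of the 7 classes, microglia-like cells had the highest value of Mepce in each library, with 40.0, 52.7 and 44.6 CPM, but did not differ from nIPC-like cells, the next class, beyond counting error in any library.

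RNA of Cdk9, which encodes the kinase, was lower in neuroblast-like, nIPC-like and RGL-like cells of both mutant libraries. Over all kept cells the log2 ratios of Cdk9 were -0.48 (nestin-Cre) and -0.29 (Emx1-Cre), but the mix of classes differed between libraries. The wild-type library held 2809 unnamed and 893 erythroid cells, against 161 and 14 (nestin-Cre) and 227 and 12 (Emx1-Cre). In neuroblast-like cells, over all their clusters, Cdk9 stood at 65.6 CPM (59.3 to 72.5) in the wild-type, 34.9 (31.3 to 38.9) in the nestin-Cre and 45.8 (41.4 to 50.4) in the Emx1-Cre library. These intervals do not touch, and the log2 ratios were -0.91 (-1.12 to -0.70) and -0.52 (-0.72 to -0.32). In nIPC-like cells Cdk9 stood at 56.1, 35.2 and 44.2 CPM, log2 ratios of -0.67 (-0.99 to -0.36) and -0.34 (-0.63 to -0.06), of which the latter was -0.04 once cells were thinned to 1500 UMIs. In RGL-like cells the log2 ratios of Cdk9 were -0.38 (-0.71 to -0.05) and -0.35 (-0.68 to -0.03), and in astrocyte-like cells they were -0.57 (-0.93 to -0.22) and -0.20 (-0.50 to 0.09), and -0.58 and -0.13 in cluster 7 alone. In glial progenitor-like and OPC-like cells all intervals of the Cdk9 ratio held 0, and in microglia-like cells Cdk9 stood at 56.5, 72.8 and 56.2 CPM, with log2 ratios of 0.37 (-0.05 to 0.78) and -0.01 (-0.53 to 0.50).

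The cyclins differed less. Ccnt1 was highest in neuroblast-like cells of each library, at 102.4, 104.9 and 113.9 CPM, although in the nestin-Cre library the next class, nIPC-like cells, did not differ beyond counting error. Its log2 ratios in neuroblast-like cells were 0.04 (-0.11 to 0.18) and 0.15 (0.01 to 0.30). In nIPC-like cells Ccnt1 stood at 78.0, 99.0 and 97.3 CPM, log2 ratios of 0.34 (0.12 to 0.57) and 0.32 (0.10 to 0.54). Ccnt2 in nIPC-like cells stood at 49.2, 61.8 and 56.3 CPM, log2 ratios of 0.33 (0.05 to 0.61) and 0.19 (-0.09 to 0.47), and in neuroblast-like cells its ratios were -0.17 (-0.36 to 0.01) and -0.24 (-0.43 to -0.05). Between the mutant libraries, the interval of the log2 ratio excluded 0 in 5 of 42 cases. The share of all genes for which it did so was not worked out. At 1.5-fold, with at least 100 UMIs over the pair, only Ccnt2 in RGL-like cells was past the fold. In that class 2.26% of 8526 genes were past it in either direction. Ccnt2 gave the widest of the 5 ratios. In RGL-like cells it stood at 58.9 CPM in the wild-type and 59.1 in the nestin-Cre library but at 38.3 in the Emx1-Cre library, a log2 ratio between nestin-Cre and Emx1-Cre of 0.63 (0.33 to 0.93), and in astrocyte-like cells that ratio was 0.55 (0.14 to 0.95). Against the wild-type library, Ccnt2 in astrocyte-like cells was at -0.26 for nestin-Cre and -0.80 for Emx1-Cre on the log2 scale, and at 0.05 and -0.66 in cluster 7 alone. The other 3 were Cdk9 in neuroblast-like (-0.39, -0.60 to -0.18) and nIPC-like cells (-0.33, -0.65 to -0.01) and Mepce in neuroblast-like cells (0.34, 0.10 to 0.57). For Hexim1 the log2 ratio of nestin-Cre over Emx1-Cre was above 0 in all 7 classes (0.03 to 0.27) with every interval holding 0, and over all kept cells it was 0.12 (0.02 to 0.22).

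**Figure D4:**
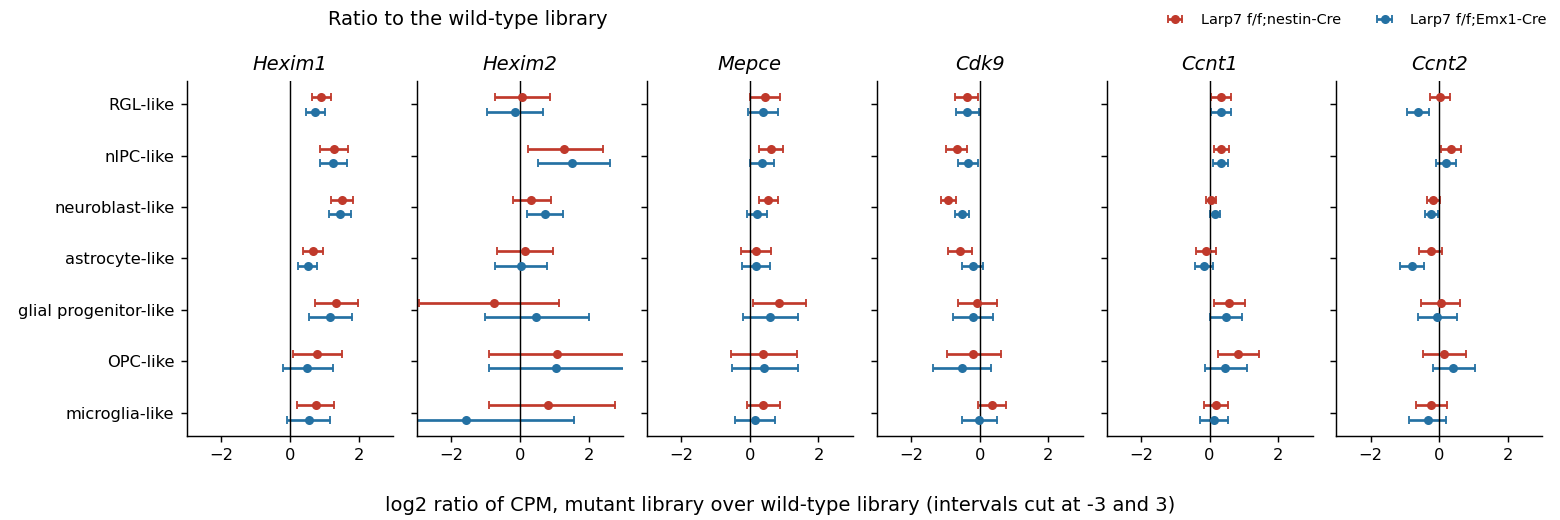
Log2 ratio of CPM in the nestin-Cre (red) and Emx1-Cre (blue) library over the wild-type library for the 6 genes in 7 classes, with exact 95% intervals that cover counting error only. Hexim1 lies right of 0 throughout, Cdk9 lies left of 0 in stem cells, progenitors and neuroblasts, and the intervals of Hexim2 are wide because its UMIs are few.

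By the fold rule used for all genes (at least 1.5-fold, with at least 100 UMIs over the pair of libraries), 5 of the 6 genes had enough UMIs in nIPC-like cells, Hexim2 being the exception. For nestin-Cre, Hexim1 and Mepce were past the fold upwards, beside 9.38% of 7687 genes, and Cdk9 downwards, beside 5.01%. For Emx1-Cre, Hexim1 alone was past it upwards, beside 5.63% of 7951 genes, and none downwards, beside 2.02%. In neuroblast-like cells all 6 had enough UMIs. For nestin-Cre, Hexim1 was past the fold upwards (11.4% of 9550 genes were) and Cdk9 downwards (8.87%). For Emx1-Cre, Hexim1 and Hexim2 were past it upwards (7.48% of 9446 genes) and none downwards (3.4%). In RGL-like cells, where 5 had enough UMIs, Hexim1 was past the fold upwards for nestin-Cre (8.1% of 7927 genes) and none downwards (2.7%), and for Emx1-Cre Hexim1 was past it upwards (4.13% of 7974 genes) and Ccnt2 downwards (1.38%). The median log2 ratio over all genes tested was 0.03 and 0.06 in nIPC-like cells and -0.01 and 0.04 in neuroblast-like cells.

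**Figure D5:**
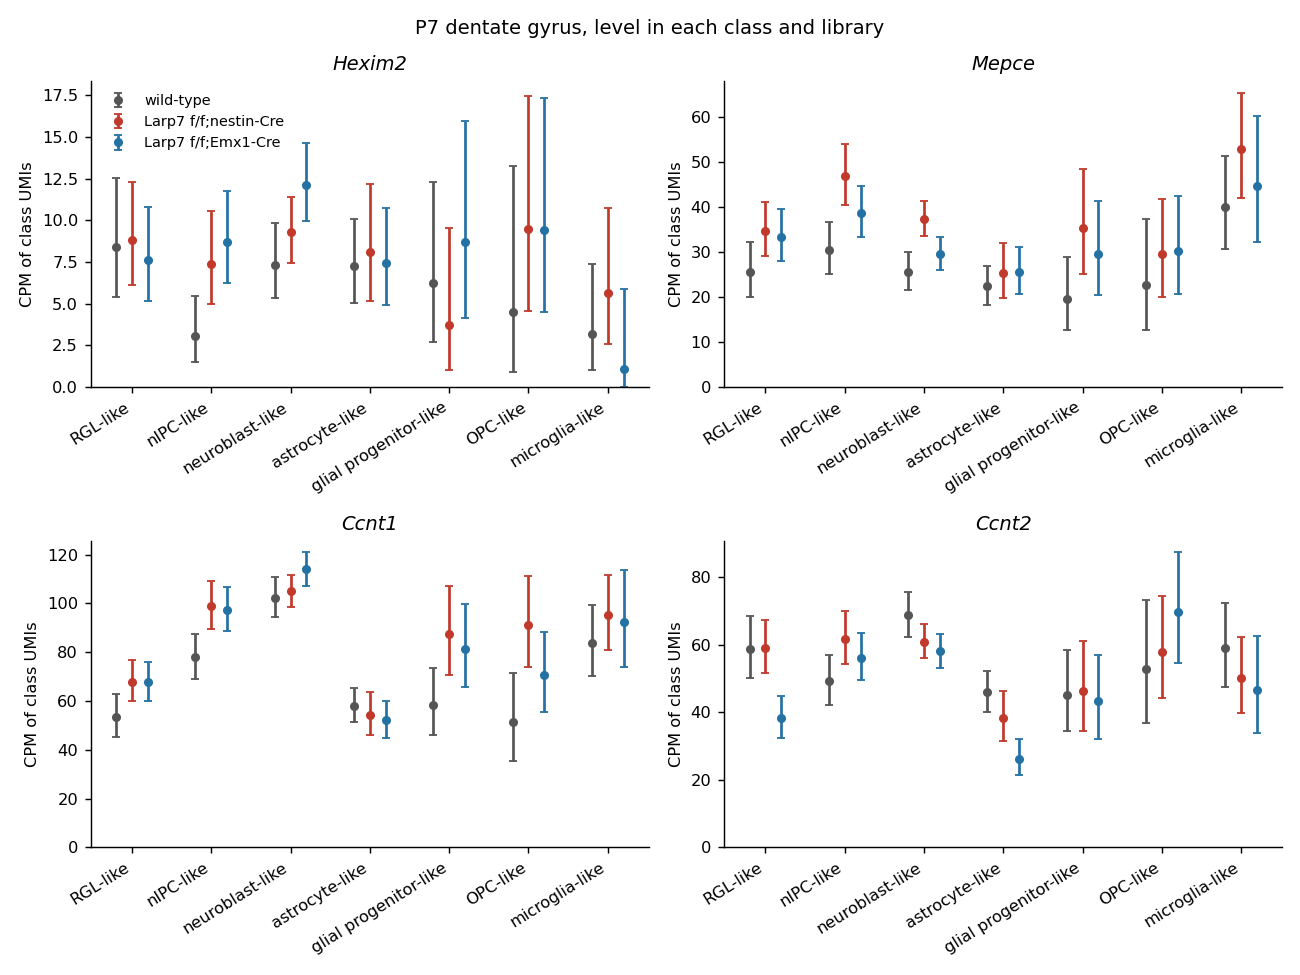
Level of Hexim2, Mepce, Ccnt1 and Ccnt2 in 7 classes of P7 cells, as CPM of the UMIs of the class (linear axes from 0), with exact 95% Poisson intervals, in the wild-type (grey), nestin-Cre (red) and Emx1-Cre (blue) library. The highest point of Ccnt1 is in neuroblast-like and that of Mepce in microglia-like cells of each library, and Ccnt2 is low in astrocyte-like cells of the Emx1-Cre library.

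Cells outside the neural lineage were read in the same way. Microglia-like cells, which arise outside the brain, held more Larp7 in the mutant libraries than the neural classes did, at 62.2 CPM in the wild-type, 35.2 in the nestin-Cre and 38.2 in the Emx1-Cre library. Hexim1 in microglia-like cells stood at 31.1, 52.1 and 45.6 CPM, log2 ratios of 0.74 (0.22 to 1.28) and 0.55 (-0.07 to 1.17), within the range of the neural classes. Most wild-type microglia-like cells were in the shallow cluster 4 and most mutant ones in cluster 13. In endothelial-like cells, of which the Emx1-Cre library held 162 and the wild-type library 396, Larp7 stood at 57.4 CPM in the wild-type and 38.5 CPM in the Emx1-Cre library and Hexim1 at 34.1 and 37.4 CPM, a log2 ratio of 0.13 (-0.68 to 0.98) for Hexim1 and -0.58 (-1.29 to 0.13) for Larp7. A cluster found almost only in the Emx1-Cre library held 116 of its 162 endothelial-like cells, so cluster and library cannot be told apart there. The nestin-Cre library held 34 such cells, too few to compare. Whether free RNA from other cells carries part of the values in microglia-like cells was not tested.

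Of the 41 elongation genes, 34 had enough UMIs in nIPC-like cells. For nestin-Cre, 1 was past 1.5-fold upwards and 2 downwards, beside 9.38% and 5.01% of all genes, and for Emx1-Cre 1 upwards and 1 downwards, beside 5.63% and 2.02%. Their median log2 ratios were 0.13 and 0.12, beside 0.03 and 0.06 over all genes. The gene past it upwards in each was Cdk12, a kinase that acts on the polymerase tail later in elongation, with log2 ratios of 0.75 and 0.65. Larp7, the deleted gene, was past it downwards in each and was the only such gene for Emx1-Cre. For nestin-Cre so was Nelfe, which encodes a subunit of the pausing factor NELF (log2 -0.61, and -0.50 for Emx1-Cre). Nelfe was singled out after its values were seen.

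The genes whose pattern over classes and libraries came closest to each of the 6 were found by Pearson's r of log2(CPM + 10) over 21 points (7 classes in 3 libraries), which share libraries and depth and are not independent. For Hexim1 these were Tnks2 (r = 0.89), Trpm7 (0.85) and Ash1l (0.82), out of 3616 genes. Hexim2 came closest to Ppp2r3a (0.80), Rnf14 (0.80) and Ddit4 (0.79), and Mepce to Chd2 (0.88), Vps4b (0.87) and 2810474O19Rik (0.87). Hexim2 had as few as 1 UMI at a point (microglia-like cells, Emx1-Cre), so counting error weighs on all its r values. Cdk9 came closest to Mapk3 (0.76), Rpl26 (0.72) and Gdi2 (0.72), Ccnt1 to Sf3b1 (0.96), Kansl1 (0.91) and Ddx5 (0.90), and Ccnt2 to Spg21 (0.79), Cpsf6 (0.78) and Dhps (0.76). Among the 6 themselves, r ran from -0.48 for Hexim2 with Cdk9 and -0.47 for Hexim1 with Cdk9 to 0.65 for Mepce with Ccnt1.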

How the data were processed

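Gene expression was measured by single-cell RNA sequencing in 3 libraries and by bulk RNA sequencing in 5 neurosphere libraries. The single-cell values are whole UMI counts per gene and barcode that the authors made with Cell Ranger (4.0.0 per the file headers, another version in the methods) from 10x 3′ libraries. The neurosphere values are whole read counts per gene that the authors deposited, having aligned reads to Ensembl mouse transcripts with Minimap2. featureCounts and mm10 stand in the submitters' processing notes, and strand is not stated. Of its 10 columns, 5 were not used because their names match no sample. ATAC-seq and CUT&Tag samples were not analysed here. Labels do not say that neurosphere replicates came from separate animals, so p-values measure the spread between these libraries only, which exceeded sampling noise (18.7 to 61.0 for chi-square over its degrees of freedom).

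RefSeq (GRCm38.p6) gave symbols to 39373 of 40814 Entrez identifiers. Counts were tested with edgeR 4.0.16 in R 4.3.3 (filterByExpr, TMM, glmQLFit and glmQLFTest with default settings, Benjamini-Hochberg, threshold 0.05), with a biological coefficient of variation of 19.4%. DESeq2 1.42.0 was the alternative. On counts simulated for this comparison (17753 genes), 25.0% of 100 genes changed 1.5-fold and 39.0% of 100 changed 2-fold were recovered. SE is the log2 fold change divided by the square root of F. Cells with more than 500 genes and under 15% mitochondrial UMIs were kept, clustered with scanpy 1.11.5 (30 principal components, 15 neighbours, Leiden resolution 1, with cell cycle genes, the 6 genes and the elongation list left out) and named from at least 3 raised markers. Doublets were not removed, because Scrublet called 2 wild-type cells and so had not worked there. Genes named were the 6, Larp7, list genes past the test or past 1.5-fold the same way in both mutant libraries in nIPC-like cells, and the 3 most alike genes (mean of at least 50 CPM). Polr2a and Nelfe were chosen after their values were seen. The 6 genes, the lists and the rules were chosen with earlier results of these data known. Alternatives were DESeq2, other size factors, no filter, leaving out each library, a replicate block, thinning to 1500 UMIs, marker gates, at least 1000 genes per cell, resolution 2, no top 6% of Scrublet scores and CPM outside mitochondrial, ribosomal protein and haemoglobin genes.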

Additional observations from a re-analysis of the deposited data

Results flagged for a closer look

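Ccnt2 had opposite signs in neurospheres and in nIPC-like cells. In neurospheres all 3 knockout libraries were below both wild-type libraries (log2 fold change -0.51, not past edgeR's test), whereas in nIPC-like cells both mutant libraries were above the wild-type library (0.33, interval 0.05 to 0.61, and 0.19, interval -0.09 to 0.47). The sign of Ccnt2 in the tissue varied with the class and the library. With Emx1-Cre, the driver of the neurospheres, it was higher in 2 of 7 classes, nIPC-like and OPC-like (69.7 against 52.8 CPM in wild-type). In RGL-like cells it was at -0.62, in astrocyte-like at -0.80 and in neuroblast-like at -0.24. With per-cell marker gates it was at -0.28 in Emx1-Cre nIPC-like cells. For nestin-Cre 4 of 7 classes were higher. Over all kept cells, whose mix of classes differed between libraries, Ccnt2 was at -0.21 (-0.32 to -0.11) for Emx1-Cre. For nestin-Cre that value was 0.01 (-0.10 to 0.11). Ccnt1 met the same criterion by its library values, but its neurosphere log2 fold change of -0.068 was within its SE of 0.076, beside 0.34 and 0.32 in nIPC-like cells, so its neurosphere value gives no direction. The difference between neurospheres and tissue was not tested for either gene.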

How the results depend on the processing

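The neurosphere calls rested on few libraries. Against 6 genes called (3 higher, 3 lower), edgeR with a robust spread, added after seeing the data, called 12 (8 lower), DESeq2 1785 (811 higher, 974 lower) and edgeR without a filter 3 (1 higher). Leaving out each library in turn gave 0 to 1905 genes (0 to 1050 higher, 0 to 855 lower), the highest without wild-type replicate 1, where the 1 wild-type library left is assumed to vary like the knockout libraries, with 1 without knockout replicate 1 and 0 without knockout replicate 3 (2403 at an unadjusted p under 0.05, edgeR). Calls among the elongation list ran from 0 to 6 against 1, with 3 by DESeq2. Hexim1 kept its direction in all 10 alternatives, from 0.60 to 0.89 (adjusted p 2.3e-07 to 0.34). Its adjusted p was under 0.05 in DESeq2 (0.74) and, with that limit, without wild-type replicate 1 (0.60). Mepce passed in DESeq2 (0.37), and Ccnt2 in DESeq2 (-0.50) and without wild-type replicate 1 (-0.57, range -0.59 to -0.43 over libraries left out). Larp7 ran from -3.18 to -2.82 without a library, with adjusted p up to 0.19. With the replicate block, edgeR called 0 genes (2464 at an unadjusted p under 0.05), with 0.78 for Hexim1 and -0.47 for Ccnt2 (0 higher, 0 lower, 0 of the list), but the numbers are not stated to pair libraries, and same-numbered libraries did not deviate together (r = -0.01 and 0.09).

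In nIPC-like cells, per-cell marker gates moved Hexim1 to 0.74 and 0.79, Mepce to 1.03 (nestin-Cre), Ccnt1 to -0.0018 (nestin-Cre) and Ccnt2 to -0.28 (Emx1-Cre), and thinning moved Cdk9 to -0.037 (Emx1-Cre). Unthinned shares of nIPC-like cells with a UMI were 7.60%, 20.2% and 19.3% for Hexim1 and 20.4%, 15.4% and 19.0% for Cdk9 (wild-type, nestin-Cre, Emx1-Cre). Over all classes, thinning moved 15 of 80 ratios past their interval, gates 6 of 72 and cluster 14 alone 3 of 12, while the other settings moved 0. Of 86 ratios of Hexim1 under these settings, 0 fell below 0 on the log2 scale. Why these values moved was not tested. Depth limits Hexim2, which had 11 to 41 UMIs in nIPC-like cells of a library.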
